A study of Mus musculus with 10 samples.

Results

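The Notch genes examined here were the receptors *Notch1*, *Notch2*, *Notch3*, and *Notch4*, the ligands *Jag1* and *Jag2*, and the transcription factor genes *Hey1*, *Hey2*, *Heyl*, and *Hes1*. They were chosen by gene symbol, and all 10 were found among the 55426 genes of the expression table. They were followed in 2 data sets, RNA-Seq of the mouse thoracic aorta and a list of PRDM16 ChIP-Seq peaks from primary vascular fibroblasts. PRDM16 is a zinc finger transcriptional regulator of vascular smooth muscle and brown fat. RNA came from 3 aorta samples of control mice, whose genotype is Prdm16f/f without Cre and which the table names WT. Another 3 aorta samples came from Prdm16SMKO mice, whose genotype is Prdm16f/f, SMMHC-CreERT2. Both groups thus carry the floxed allele on a C57BL/6J background, and in Prdm16SMKO mice tamoxifen given by gavage to young adults, followed by a washout, activates a Cre driven by the smooth muscle myosin heavy chain (*Myh11*) promoter. That transgene lies on the Y chromosome, so these animals are male. The loss of *Prdm16* alleles in each aortic cell type was not measured in these samples. The age at which these aortas were taken, the sex of the controls, and whether the controls also received tamoxifen are not given in the sources used here.

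Notch receptors are activated by membrane-bound ligands of the Jagged and Delta families on a neighboring cell. Cleavage by ADAM proteases and then by γ-secretase releases the intracellular domain of the receptor, which enters the nucleus, binds the DNA-binding protein RBPJ, and with Mastermind proteins switches on genes of the HEY and HES families. HEY and HES proteins are basic helix-loop-helix repressors. In the vessel wall, JAG1 in endothelium and smooth muscle signals to NOTCH2 and NOTCH3 on smooth muscle cells, whereas NOTCH1, NOTCH4, and JAG2 are known mainly from endothelium, so a whole aorta mixes several sources of these transcripts.

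The authors deposited TPM, which are scaled to gene length and to the sum of each library, so that levels can be compared between genes but the read depth behind each value is unknown. A single gene held 20.2% to 28.2% of the TPM of an aorta and mitochondrial genes held 14.7% to 26.5%, which moves the TPM of every other gene. *Prdm16* itself had TPM of 56.1, 47.6, and 40.3 in control aortas and 23.3, 33.3, and 23.4 in Prdm16SMKO aortas, 55.6% of the control mean, and the groups did not overlap (limma, log2 fold change −0.85, adjusted *P* = 0.0725). Groups were compared with limma on log2(TPM + 0.1) over 15668 genes, those whose TPM averaged 0.5 or more in the 6 aortas, and a gene is referred to as called when its Benjamini-Hochberg adjusted *P* value is under 0.05. Fold changes on this scale are Prdm16SMKO minus control and are slightly understated for genes of low TPM. The median over all tested genes was −0.12, so a log2 fold change of that size marks the middle of the table and not 0. No source used here says whether a sample is 1 animal or a pool, and *P* values describe the spread between these 6 samples, which may in part be technical.

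The reference sequence at the PRDM16 peaks is shown first for *Hes1*, the member with the most peaks around its start site. Sequences are from RefSeq for GRCm38 and read 5′ to 3′, and the ChIP-Seq results below refer back to them. The first 4 are on the forward strand, on which *Hes1* is transcribed, and surround the summits of 4 of its 6 peaks. Capitals mark the core RBPJ letters TGGGAA, the E-box CACGTG, or the N-box CACNAG, a class of letters bound by HES proteins, each on either strand.
*Hes1* upstream summit, chr16:30063864-30063964: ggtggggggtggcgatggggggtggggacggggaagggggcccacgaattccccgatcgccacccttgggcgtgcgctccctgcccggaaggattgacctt
*Hes1* exon-intron summit, chr16:30066189-30066389: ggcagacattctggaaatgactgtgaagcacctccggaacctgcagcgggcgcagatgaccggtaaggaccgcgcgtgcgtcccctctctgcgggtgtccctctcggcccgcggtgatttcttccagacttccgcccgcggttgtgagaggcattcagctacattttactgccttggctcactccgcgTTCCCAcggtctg
*Hes1* coding exon summit, chr16:30066952-30067192: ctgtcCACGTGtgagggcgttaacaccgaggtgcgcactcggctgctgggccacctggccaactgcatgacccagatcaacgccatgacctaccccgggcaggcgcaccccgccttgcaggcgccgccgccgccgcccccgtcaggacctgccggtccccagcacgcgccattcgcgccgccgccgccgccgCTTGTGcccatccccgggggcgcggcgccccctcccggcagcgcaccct
*Hes1* summit beyond the gene end, chr16:30068700-30068800: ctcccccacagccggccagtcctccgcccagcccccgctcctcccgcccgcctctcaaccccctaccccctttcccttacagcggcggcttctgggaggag
*Jag1* intron summit, chr2:137114609-137114709: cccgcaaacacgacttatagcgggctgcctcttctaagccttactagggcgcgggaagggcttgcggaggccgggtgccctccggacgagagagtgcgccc
*Hey2* promoter, chr10:30842774-30843033, minus strand: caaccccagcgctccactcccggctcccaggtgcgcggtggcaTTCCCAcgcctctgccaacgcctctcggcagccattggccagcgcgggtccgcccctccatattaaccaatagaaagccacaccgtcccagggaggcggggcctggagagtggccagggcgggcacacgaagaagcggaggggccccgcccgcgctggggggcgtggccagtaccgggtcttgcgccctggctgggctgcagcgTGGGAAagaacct
The *Jag1* window, on the forward strand, is that of the peak with the highest fold enrichment among the receptor and ligand genes, and holds none of these letters. The *Hey2* promoter is shown on the strand of the gene because it holds the extended RBPJ letters GTGGGAA at 2 places, starting 207 bases before the start site on the opposite strand and 4 bases before it on the gene strand, and it runs on past the start site to hold the latter.

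In control aortas *Heyl* was the most abundant of the 10 transcripts and *Hey1* the least. The control mean was 69.5 ± 13.6 TPM (SD, n = 3) for *Heyl*, and every control value of *Heyl* lay above every value of *Hey2*, at 33.2 ± 4.45 TPM (SD, n = 3), the next in order. *Hey2*, *Notch2*, *Jag1*, and *Notch3* followed with control means of 33.2, 28.8, 23.5, and 21.7 TPM, and each overlapped its neighbor in this order. A second tier began with *Hes1* at 11.0 ± 2.13 TPM (SD, n = 3), below all values of *Notch3*. It went on with *Notch1*, *Jag2*, and *Notch4* at control means of 7.79, 6.59, and 6.24 TPM, again with overlapping neighbors, and *Hey1* at 3.37 ± 0.87 TPM (SD, n = 3) lay below all values of *Notch4*. In Prdm16SMKO aortas *Heyl* was still first and *Hey1* last, but *Hes1* took the fourth place, with a mean of 23.1 ± 5.37 TPM (SD, n = 3) and a range that overlapped those of *Hey2* and *Jag1*.

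**Figure D1:**
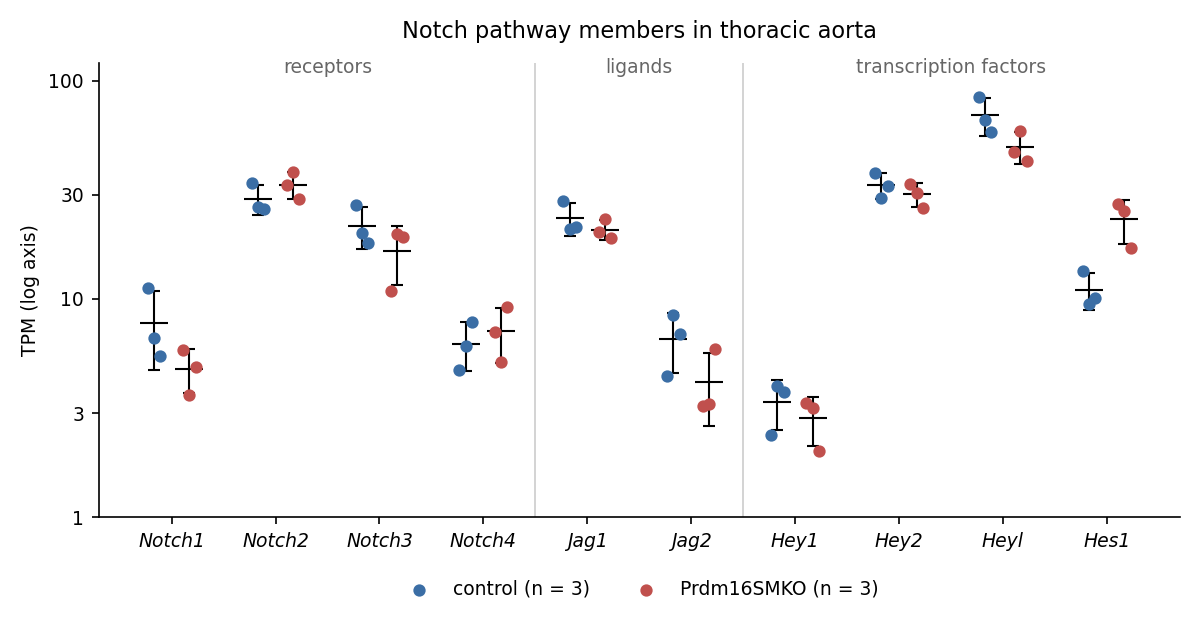
TPM of the 10 genes (log axis) in each control aorta (blue, n = 3) and each Prdm16SMKO aorta (red, n = 3), with the group mean as a horizontal line and the SD as a bar. The groups overlap for every gene other than *Hes1*, whose Prdm16SMKO values of 17.1 to 27.2 TPM all lie above the control values of 9.50 to 13.4 TPM.

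None of the 10 genes was called between the groups, against 0.389% of all tested genes called higher and 0.683% called lower in Prdm16SMKO aortas. The authors list differentially expressed genes with a PRDM16 promoter peak, from a test that their paper does not name. That list holds *Hes1* and *Notch2* as higher and *Notch3* as lower in Prdm16SMKO aortas, the direction of each estimate here. Its adjusted *P* values for these genes are far below those of limma here. The calls here are therefore those of limma on TPM only, and a gene not called here can be called in the authors' test. With unadjusted *P* values under 0.05, limma separated 3 of the 10, *Hes1*, *Heyl*, and *Notch1*, whereas 12.7% of all tested genes reached this level. The groups did not overlap for 1 of the 10, *Hes1*, against 19.0% of all tested genes. The median log2 fold change of the 10 genes was −0.20, beside −0.12 for all tested genes, with 3 genes above 0 and 7 below. In bulk tissue a smaller number of cells of 1 type and less RNA per cell cannot be told apart, which holds for each comparison that follows.

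Among the receptors, *Notch2* (ENSMUSG00000027878; chromosome 3, 98013527 to 98150361 in GRCm38) was the most abundant. Its TPM were 34.1, 26.4, and 25.9 in control aortas and 33.2, 38.0, and 28.7 in Prdm16SMKO aortas. The highest control value lay inside the Prdm16SMKO range, and the difference did not pass the test (limma, log2 fold change 0.21, 95% interval −0.15 to 0.57, adjusted *P* = 0.616). *Notch3* (ENSMUSG00000038146; chromosome 17, 32120820 to 32166852), the receptor best known from vascular smooth muscle and pericytes, had TPM of 27.0, 20.1, and 18.0 in control aortas and 10.9, 19.8, and 19.1 in Prdm16SMKO aortas. Prdm16SMKO aorta 1 was the lowest of the 6, while the other two lay within the control range (limma, log2 fold change −0.41, 95% interval −0.98 to 0.15, adjusted *P* = 0.528). Without that aorta the log2 fold change of *Notch3* was −0.13 (limma, adjusted *P* = 0.902), against adjusted *P* values from 0.359 to 0.902 over all alternatives.

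*Notch1* (ENSMUSG00000026923; chromosome 2, 26457903 to 26516663) had TPM of 11.2, 6.64, and 5.48 in control aortas and 5.83, 3.64, and 4.90 in Prdm16SMKO aortas. Control aorta 1 stood well above the others, and the lowest control value lay below the highest Prdm16SMKO value. The Prdm16SMKO mean was 61.5% of the control mean, and the difference did not pass the test (limma, log2 fold change −0.65, SE 0.29, adjusted *P* = 0.394). Without control aorta 1 the log2 fold change of *Notch1* was −0.35 (limma, adjusted *P* = 0.698), in a range of adjusted *P* values from 0.256 to 0.718 over the alternatives. *Notch4* (ENSMUSG00000015468; chromosome 17, 34564268 to 34588503) had TPM of 4.75, 6.09, and 7.87 in control aortas and 7.04, 5.13, and 9.14 in Prdm16SMKO aortas. The values of the 2 groups interleaved, and the direction depended on single aortas (limma, log2 fold change 0.18, 95% interval −0.41 to 0.76, adjusted *P* = 0.822). Without control aorta 1 it was −0.0021, and without Prdm16SMKO aorta 3 it was −0.023. The summed TPM of 8 endothelial markers, none of which was at 0 in any aorta, was 102, 115, and 129 in control and 158, 71.2, and 114 in Prdm16SMKO aortas, so the groups overlapped. In control aortas *Notch1* was highest in aorta 1, which had the lowest endothelial sum of the controls. In Prdm16SMKO aortas *Notch1* and the endothelial sum were both highest in aorta 1 and both lowest in aorta 2. The part of endothelial content in these values was not tested.

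The 4 receptors together had a mean of 64.5 TPM in control and 61.8 TPM in Prdm16SMKO aortas. The sums overlapped, at 57.28 to 77.02 TPM in control and 56.95 to 66.58 TPM in Prdm16SMKO aortas. *Notch2* made up 44.2% to 45.3% of the receptor TPM in control aortas and 46.4% to 58.3% in Prdm16SMKO aortas, and *Notch3* made up 31.4% to 35.0% and 19.1% to 30.9%, respectively. Neither share overlapped between the groups, each with *P* = 0.1 by a 2-sided exact permutation test, which is the smallest value that 3 aortas against 3 can give, so this design cannot reach 0.05. The shares of *Notch1* and *Notch4* overlapped, with exact permutation *P* values of 0.2 and 0.6. The shares within 1 family add up to a fixed total and are not independent of each other.

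**Figure D2:**
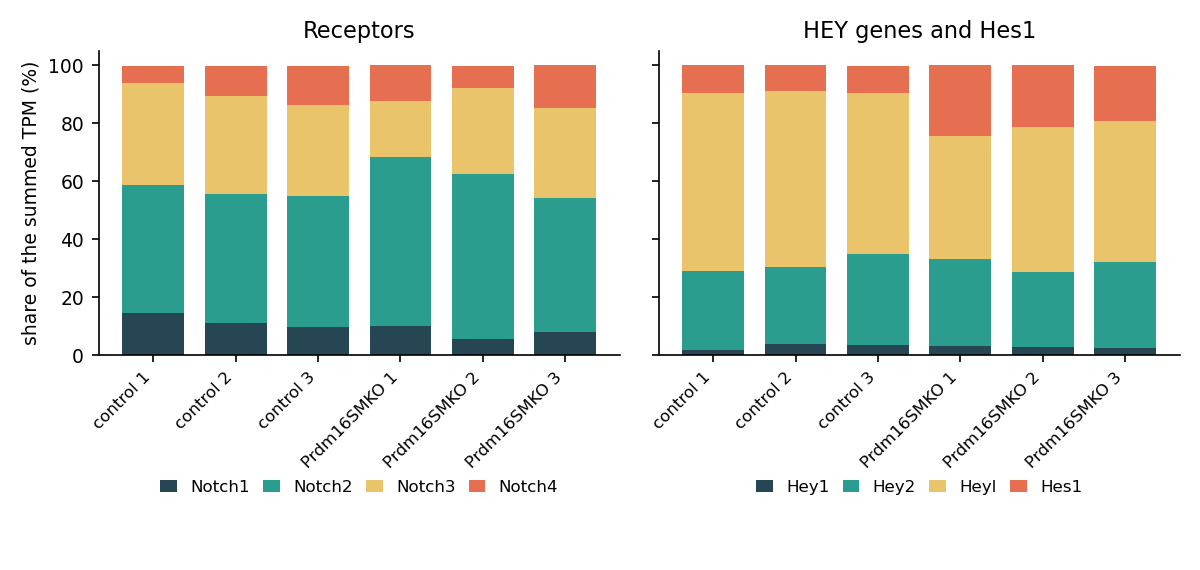
Share of the summed TPM (%) of the 4 receptors (left) and of the 3 HEY genes with *Hes1* (right) in each aorta, as stacked bars. *Notch2* holds 46.4% to 58.3% of the receptor TPM in Prdm16SMKO aortas against 44.2% to 45.3% in controls, and *Hes1* holds 19.3% to 24.5% of its group against 8.75% to 9.74%.

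Neither ligand was called, and the groups overlapped for both. *Jag1* (ENSMUSG00000027276; chromosome 2, 137081456 to 137116644), the main ligand of the arterial wall, had TPM of 28.1, 20.8, and 21.4 in control aortas and 20.2, 23.2, and 18.9 in Prdm16SMKO aortas. One control aorta lay above the rest, which overlapped (limma, log2 fold change −0.17, 95% interval −0.52 to 0.19, adjusted *P* = 0.701). *Jag2* (ENSMUSG00000002799; chromosome 12, 112907819 to 112929776) had TPM of 4.46, 8.41, and 6.90 in control aortas and 3.24, 3.31, and 5.91 in Prdm16SMKO aortas. A pair of Prdm16SMKO aortas lay below all controls and the other one within the control range (limma, log2 fold change −0.66, 95% interval −1.35 to 0.022, adjusted *P* = 0.41). *Jag1* made up 71.2% to 86.3% of the ligand TPM in control and 76.2% to 87.5% in Prdm16SMKO aortas.

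Among the effectors of the pathway, *Hes1* (ENSMUSG00000022528; chromosome 16, 30064384 to 30067796) had the largest estimate of the 10 members. Its TPM were 13.4, 9.50, and 10.1 in control aortas and 27.2, 25.2, and 17.1 in Prdm16SMKO aortas. Every Prdm16SMKO value lay above every control value, and the ratio of the means was 2.10. The log2 fold change was 1.05 (SE 0.21, 95% interval 0.58 to 1.53), with an unadjusted *P* value of 0.000763 and an adjusted *P* value of 0.0586 by limma, just short of the threshold. Over 15 alternatives the log2 fold change stayed between 0.92 and 1.26, with adjusted *P* values from 0.0159 to 0.198, and *Hes1* was called in 6 of them. Rescaling by median ratio, which brings the median of all genes close to 0, gave a log2 fold change of 1.17 (limma, adjusted *P* = 0.0159), and quantile normalization gave 1.15 (limma, adjusted *P* = 0.0188). Among single aortas left out, *Hes1* was called only without Prdm16SMKO aorta 3 (limma, adjusted *P* = 0.0262), the lowest of its group.

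*Heyl* (ENSMUSG00000032744; chromosome 4, 123233556 to 123249875) encodes a HEY family repressor that is abundant in vascular smooth muscle. It had TPM of 84.4, 66.2, and 57.9 in control aortas and 46.9, 58.9, and 43.0 in Prdm16SMKO aortas. The groups overlapped only by the highest Prdm16SMKO value, which lay just above the lowest control value. The Prdm16SMKO mean was 71.3% of the control mean (limma, log2 fold change −0.48, SE 0.17, adjusted *P* = 0.284). With median ratio rescaling the log2 fold change was −0.36 (limma, adjusted *P* = 0.118), and over all alternatives it stayed between −0.61 and −0.32 with adjusted *P* values from 0.118 to 0.764. *Hey2* (ENSMUSG00000019789; chromosome 10, 30832359 to 30842801), a HEY gene of arterial development, had TPM of 37.8, 28.9, and 33.0 in control aortas and 33.6, 30.5, and 26.2 in Prdm16SMKO aortas. These values interleaved (limma, log2 fold change −0.14, 95% interval −0.48 to 0.20, adjusted *P* = 0.732), and after quantile normalization the log2 fold change was −0.002. *Hey1* (ENSMUSG00000040289; chromosome 3, 8663359 to 8667256), the rarest member, had TPM of 2.38, 4.0, and 3.74 in control aortas and 3.34, 3.17, and 2.01 in Prdm16SMKO aortas. Its groups also interleaved (limma, log2 fold change −0.24, 95% interval −0.89 to 0.41, adjusted *P* = 0.773).

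**Figure D3:**
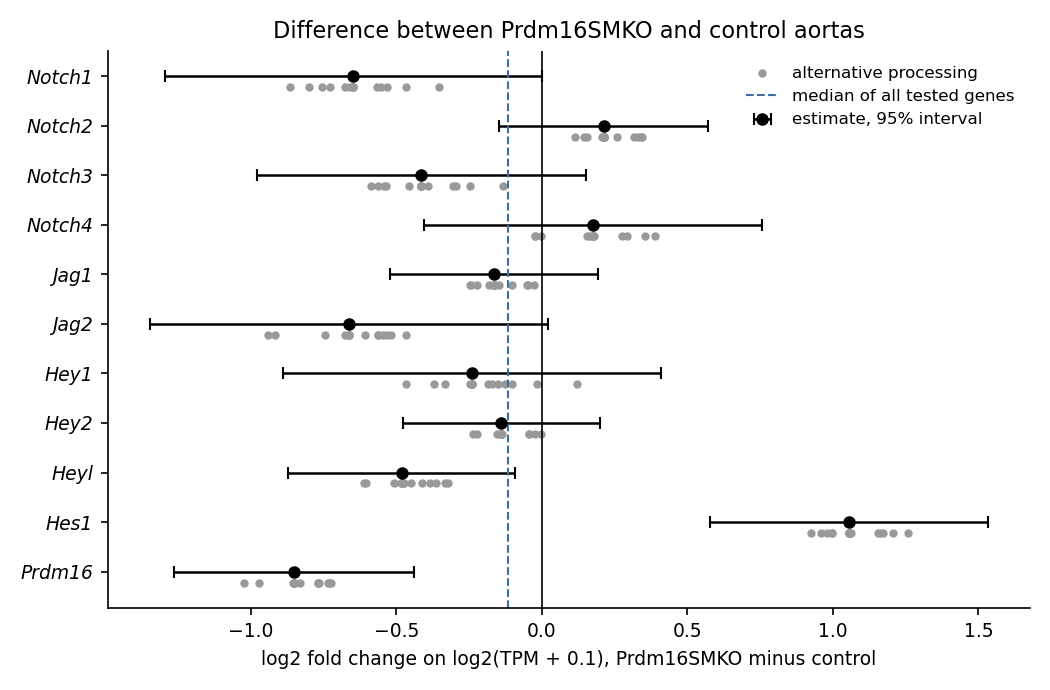
Log2 fold change of each member and of *Prdm16*, Prdm16SMKO minus control, on log2(TPM + 0.1), with its 95% interval from limma (black) and the values under 15 alternatives (gray). *Hes1* lies at 1.05 with alternatives from 0.92 to 1.26, and *Heyl*, *Notch1*, and *Jag2* have the lowest estimates of the members. The interval of every member other than *Hes1* spans the median of all tested genes (−0.12, dashed).

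The estimates for *Hes1* and *Heyl* had opposite signs, although neither gene was called and the *Heyl* groups overlapped. The ratio of *Hes1* to *Heyl* TPM, which does not depend on the scaling of a library, was 0.144 to 0.174 in control and 0.397 to 0.58 in Prdm16SMKO aortas. The groups did not overlap in this ratio (2-sided exact permutation *P* = 0.1, the smallest possible), which was chosen after the values were seen. *Hes1* held 8.75% to 9.74% of the summed TPM of the 4 transcription factor genes in control aortas and 19.3% to 24.5% in Prdm16SMKO aortas, while the share of *Heyl* was 55.3% to 61.2% and 42.2% to 50.0%. The share of *Hey2* was 26.6% to 31.5% and 25.9% to 30.3%.

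Marker levels of other cell types were recorded beside these values. The summed TPM of 7 smooth muscle markers was 20745 to 24185 in control and 13816 to 17864 in Prdm16SMKO aortas, without overlap, and 4 of the 7 were lower without overlap, beside 2342 of the 15668 tested genes, although none was called. The largest part of the smooth muscle sum was *Acta2*, at 11024 to 12433 TPM in control and 6455 to 8230 TPM in Prdm16SMKO aortas. *Myh11*, *Smtn*, and *Myocd*, in the same list, overlapped between the groups, and *Myocd* had a mean of 119% of the control mean. The summed TPM of 3 pericyte markers was 407 to 512 in control and 609 to 927 in Prdm16SMKO aortas, also without overlap. Most of this sum was *Rgs5*, at 299 to 377 and 494 to 763 TPM. It was the only one of the 3 that was higher without overlap, beside 640 of the 15668 tested genes. *Kcnj8* and *Abcc9* overlapped, and none of the 3 was called. No smooth muscle or pericyte marker was at 0 in any aorta. The sums of 6 fibroblast, 4 macrophage, 3 mesothelial, 4 skeletal muscle, and 3 Schwann cell markers overlapped between the groups. In the skeletal muscle list *Myh4* and *Mylpf* were at 0 in at least 1 aorta, as was *Wt1* in the mesothelial list. The sum of 6 brown adipocyte markers, from fat around the vessel, varied from 127 to 567 TPM in control and from 138 to 446 TPM in Prdm16SMKO aortas. Among them only *Dio2* did not overlap, at 16.1 to 22.8 TPM in control and 9.88 to 13.3 TPM in Prdm16SMKO aortas, and none was called. Without the aorta highest in this sum in each group, an alternative chosen after the data were seen, *Hes1* had a log2 fold change of 1.16 (limma, adjusted *P* = 0.0496). The part of the smooth muscle marker and *Rgs5* levels in the *Hes1* and *Heyl* values was not tested.

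The other genes of the pathway were examined as a list of 45, from ligands to nuclear cofactors, of which 38 passed the filter. None was called, and 4 had an unadjusted *P* value under 0.05 by limma, beside 12.7% of all tested genes. They were named after their values were seen. *Furin*, the convertase that matures Notch receptors, had TPM of 33.9 to 42.7 in control and 24.9 to 30.1 in Prdm16SMKO aortas (limma, log2 fold change −0.43, adjusted *P* = 0.233). *Psenen*, the γ-secretase subunit with the highest TPM of the cleavage genes, was at 59.9 to 65.6 and 50.6 to 54.6 TPM (limma, log2 fold change −0.25, adjusted *P* = 0.377). *Lfng*, a Fringe glycosyltransferase that tunes receptor preference for ligands, was at 1.39 to 1.79 and 1.82 to 3.39 TPM (limma, log2 fold change 0.68, adjusted *P* = 0.389). *Maml3*, a Mastermind coactivator, was at 1.62 to 2.19 and 2.91 to 3.14 TPM (limma, log2 fold change 0.65, adjusted *P* = 0.273). The authors' list of differentially expressed genes with a PRDM16 promoter peak holds *Maml3* as higher and *Furin* as lower in Prdm16SMKO aortas. For each of these 4 genes the groups did not overlap. Counting *Adam17*, *Mib1*, and *Dtx2*, this held for 7 of the 38, 3 higher and 4 lower, beside 19.0% of all tested genes.

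By role, the median log2 fold changes of the other pathway genes lay between −0.32 and −0.11, beside −0.12 for all tested genes. The groups overlapped for the 4 other genes named here, each the highest by mean TPM in its role. For the Delta ligand *Dll4* the range was 1.31 to 2.59 TPM in control and 1.13 to 1.94 TPM in Prdm16SMKO aortas. It was 23.6 to 27.0 and 20.3 to 26.7 TPM for *Poglut1*, which adds glucose to the receptors, and 44.4 to 62.4 and 39.1 to 56.5 TPM for the Deltex family member *Dtx3*. *Hes6*, a further HES family member, was at 8.40 to 10.6 and 7.91 to 9.53 TPM. Of the HES genes outside the 10 members only *Hes6* passed the filter, and *Hes2* and *Hes5* were listed at 0 in all 6 aortas, as was the ligand *Dll3*. Thus *Hes1* and *Hes6* were the HES genes that passed the filter, and *Hes6* had a log2 fold change of −0.20 (limma, adjusted *P* = 0.64).

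**Figure D4:**
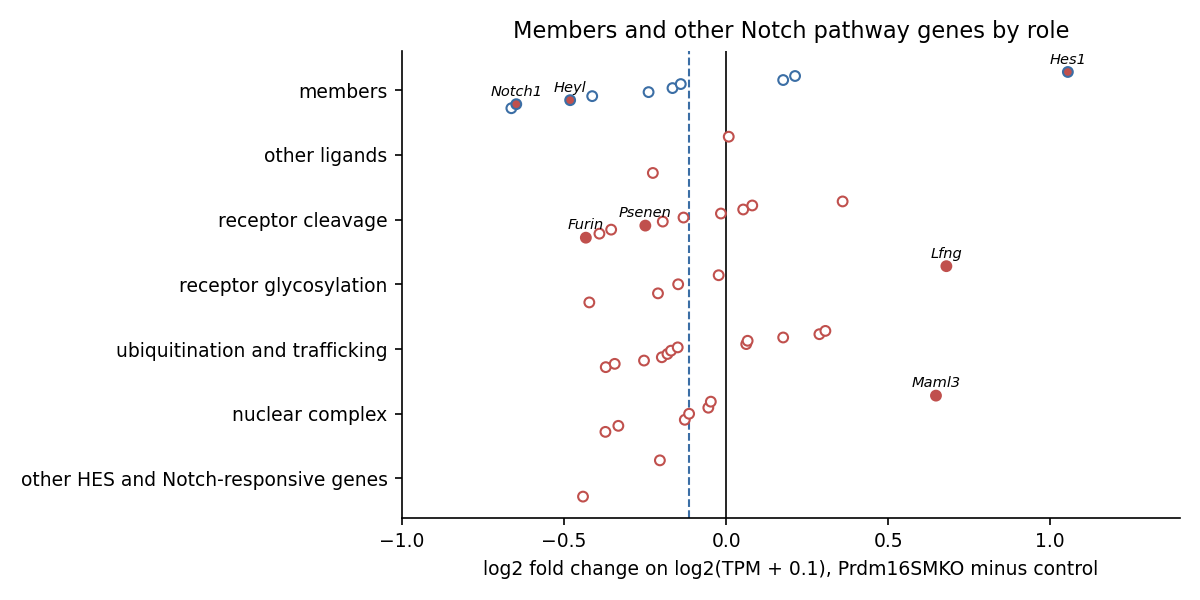
Log2 fold change, Prdm16SMKO minus control, of the 10 members (blue outline) and the 38 tested genes of the pathway list (red outline) by role, with filled points and names for unadjusted *P* values under 0.05 and the median of all tested genes dashed. *Hes1*, at 1.05, is the highest value plotted, and *Lfng* at 0.68 and *Maml3* at 0.65 are the highest of the pathway list, while *Jag2* at −0.66 and *Notch1* at −0.65 are the lowest.

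PRDM16 peaks came from wild-type primary vascular fibroblasts. Lentivirus carried either PRDM16 with a Flag tag or no insert, infection lasted 48 hours, puromycin at 2 μg/mL was then applied over 1 week, and chromatin was precipitated with anti-Flag. These are connective tissue cells with an introduced PRDM16, so the peaks do not come from the smooth muscle cells of the aorta, and the identity of the cells could not be checked against expressed markers here. Each condition had 1 anti-Flag library, and no value has a replicate or a test. The PRDM16 list held 11271 peaks, with a median fold enrichment of 5.27 at the summit over the local background, and the vector list held 67. No vector peak lay within 100 kb of the start site of any of the 10 genes.

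A promoter peak, with its center at most 2 kb from a transcription start site (TSS) in curated RefSeq transcripts, was present at 7 of the 10 genes, 70% of them, and at 43.4% of the 13249 tested aorta genes matched to RefSeq. The 7 genes were *Notch1*, *Notch2*, *Notch3*, *Jag1*, *Hey1*, *Hey2*, and *Hes1*. In the pathway list 23 of the 38 tested genes (60.5%) had one. With a q of at most 0.001 the count over the members was 5 of 10, without *Hey1* and *Hey2*, beside 39.7% of tested genes. Most promoter peaks of the members lay past the start site. Of 11 promoter peaks at the members, 10 were centered downstream of the TSS, a share not counted here over all genes. With a window from 1 kb upstream to 100 bp downstream no member kept a promoter peak. The share of tested genes with one fell from 43.4% to 14.3%. For *Hes1* this depends on the RefSeq TSS, since its upstream peak lies nearer to the GENCODE start.

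**Figure D5:**
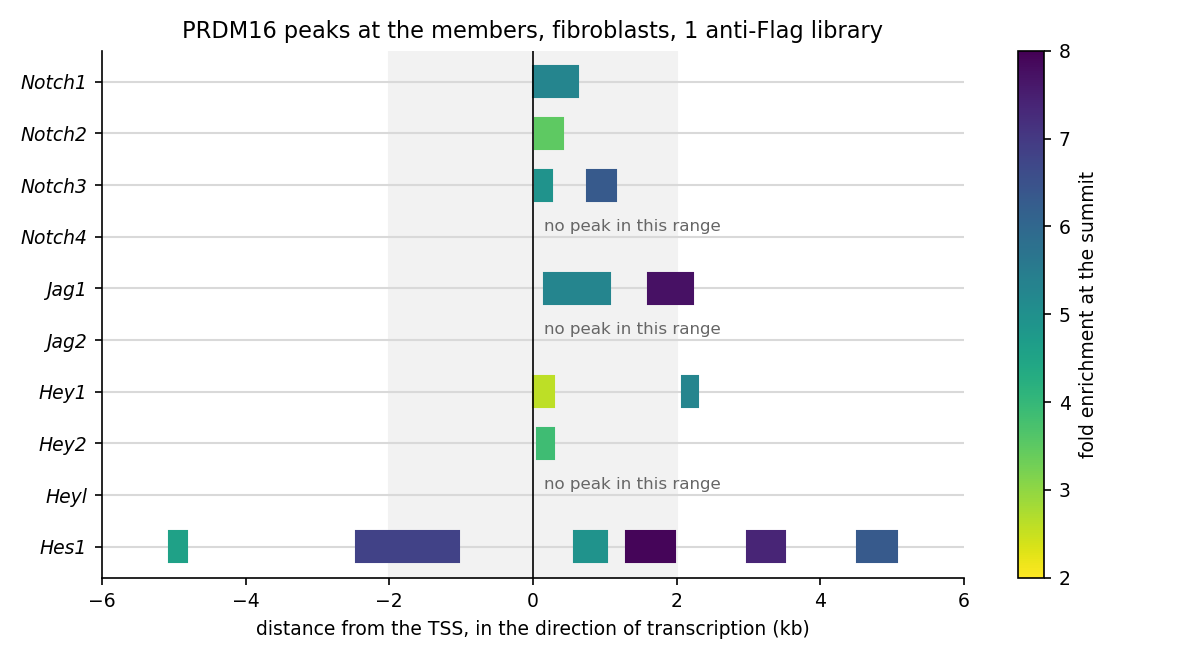
PRDM16 peaks of the fibroblast library around the RefSeq TSS of each member, drawn by length and by distance from the TSS in the direction of transcription (kb), and colored by fold enrichment at the summit, with the 2 kb promoter window shaded. *Hes1* has 6 peaks within 5 kb, on both sides of its TSS, the peaks of the other genes lie downstream of the TSS, and *Notch4*, *Jag2*, and *Heyl* have none in this range.

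*Hes1* had 6 PRDM16 peaks centered within 5 kb of its TSS at 30065357 on chromosome 16, and they surrounded the gene. Among the tested genes, 7 genes (0.0528%) had 6 or more, and 7232 of the 13249 had none. The peak with the highest fold enrichment, 7.92, higher than 90.5% of all peaks, spanned 30066652 to 30067327 and was centered in a coding exon 1632 bp downstream of the TSS. Its printed window opens with an E-box and holds an N-box on the opposite strand. A peak from 30065923 to 30066394, with a fold enrichment of 4.92, had its summit in an intron, and the extended RBPJ letters GTGGGAA lay on the minus strand 88 bp from that summit, near the end of the printed window. The peak from 30062900 to 30064327, at 1428 bp the longest of the members, was centered 1744 bp before the TSS and reached 6.82-fold enrichment. The GENCODE span of *Hes1* begins at 30064384, between this peak and the RefSeq TSS, so that distance depends on the start site used. The other 3 peaks were centered 4935 bp upstream, 3247 bp downstream, and 4786 bp downstream, outside the gene, with fold enrichments of 4.57, 7.38, and 6.33. *Hes1* was the only member whose TPM groups did not overlap, and it had the most peaks. *Notch3* and *Jag1*, each with 2 peaks, overlapped between the groups. The TPM come from the aorta and the peaks from fibroblasts, and a link between them was not tested.

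Among the receptors, *Notch3* had 2 peaks on chromosome 17, one from 32166622 to 32166866 in a coding exon, 146 bp downstream of the TSS, and one from 32165738 to 32166141 in an intron, 951 bp downstream, with fold enrichments of 4.92 and 6.33. *Notch1* had 1 peak, from 26503200 to 26503819 on chromosome 2, with a fold enrichment of 5.27 and its summit in the 5′ UTR 44 bp past the TSS. *Notch2* had a promoter peak from 98013570 to 98013959 on chromosome 3, with a fold enrichment of 3.49, higher than only 5.83% of all peaks, and an intron peak 29.5 kb into the gene with a fold enrichment of 5.98. *Notch4* had none, and its nearest peak lay 28.3 kb downstream of its TSS, past the end of the gene.

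*Jag1* had 2 peaks on chromosome 2, from 137115448 to 137116365 and from 137114300 to 137114914. They were centered 614 bp and 1913 bp downstream of the TSS, both in introns, with fold enrichments of 5.27 and 7.74, the latter higher than 88.3% of all peaks and the one whose window is printed above. The summit of the former lay in a coding exon, 1013 bp downstream of the TSS. *Jag2* had no peak, the nearest lying 47.2 kb upstream of its TSS. The promoter peaks of the HEY genes were the weakest of the members beside that of *Notch2*. *Hey1* had a peak from 8666744 to 8667032 on chromosome 3 with a fold enrichment of 2.60, higher than only 0.452% of all peaks, and one of 5.27-fold enrichment in a coding exon 2183 bp further into the gene than the TSS. *Hey2* had a peak from 30842489 to 30842724 on chromosome 10, centered 177 bp past the TSS. Its fold enrichment was 3.87, higher than 11.1% of all peaks. *Heyl*, the member with the highest TPM, had no peak nearer than 49.6 kb. Of the 3 members with an unadjusted *P* value under 0.05 by limma, *Hes1* and *Notch1* had a promoter peak and *Heyl* did not. A promoter peak was present at 70% of all members and at 43.4% of tested genes. A link between peaks and aorta values was not tested.

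The 16 peaks at the members were GC-rich, as the list was as a whole. In 300 bases around the summit their GC content was 49.3% to 77.7%, with a median of 64.8%, beside 63.3% over all peaks, and they held a median of 25.5 CpG dinucleotides beside 19 over all peaks. Of the 16 windows, 3 held the core RBPJ letters TGGGAA on either strand, 1 each at *Notch3*, *Jag1*, and *Hes1*, and 1 held the extended letters, at *Hes1*. Over all peaks 21.6% of windows held the core and 6.12% the extended letters, and over 32851 RefSeq promoters of the same length the shares were 25.6% and 6.38%. The E-box CACGTG was found at 1 peak each of *Notch3* and *Hes1*, beside 5.11% of all peak windows and 7.15% of promoters. The N-box CACNAG was held by 41.6% of peak windows and 42.5% of promoters, and by 5 of the 16 member windows, at *Notch1*, *Hey1*, *Hey2*, and 2 peaks of *Hes1*. The GATA letters AGATAA were held by 6.48% of peak windows and 11.2% of promoters, and among the members by 3 windows, at *Hey1* and at 2 peaks of *Hes1*. The extended RBPJ letters contain the core letters, so these matches overlap, and a match describes the letters only.

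The RefSeq promoter table held 7 of the 10 genes, all but *Hey1*, *Heyl*, and *Hes1*. Of these 7 promoters only that of *Hey2* held the core RBPJ letters, and it held the extended form at both places. The PRDM16 peak at *Hey2* lay past the printed stretch, with its summit 249 bp downstream of the TSS. *Hey2* had the second highest TPM of the 10 genes in control aortas and differed between the groups by less than the spread between the aortas.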

How the data were processed

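RNA-Seq of thoracic aortas (poly(A)-selected, 3 control and 3 Prdm16SMKO) and anti-Flag ChIP-Seq of fibroblasts (1 PRDM16 and 1 vector library) were used. The authors deposited TPM per gene, 1 column per aorta, and the submitters' processing notes list STAR 2.7.8a and RSEM 1.3.3. The annotation release is not given in the sources used here, nor is the use of strand. Because TPM keep no counts, depth is unknown and no count test was run. The peak lists, made by the authors with Bowtie2 2.3.4.1 on GRCm38 and MACS2 (q threshold 0.01, genome size preset -g hs) in each library, give each summit's fold enrichment, a ratio over local background, and the deposited −log10 q. The library that served as MACS2 control is not stated, and the IgG libraries were not analysed here.

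Groups followed the sample titles and genotypes. The groups were compared by limma 3.58.1 (R 4.3.3; lmFit and eBayes, trend on) using log2(TPM + 0.1) for genes averaging 0.5 TPM or more, with Benjamini-Hochberg adjustment over all 15668 genes, and the script was tested on simulated data. Shares were compared with exact permutation tests (scipy 1.17.1). Peaks were placed by their center against curated RefSeq TSS of GRCm38, and gene spans are those of GENCODE. Python 3.11.15, pandas 2.3.3, numpy 2.4.6, pysam 0.24.0, samtools 1.23.1, and matplotlib 3.10.9 were used. *Notch1*, *Notch2*, *Notch3*, *Notch4*, and *Jag2* overlap other annotated genes or microRNAs, which had TPM of at most 1.60.

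The members, the pathway list, and the marker lists were chosen with earlier results of these data known. The plan was to name all 10 members, *Prdm16*, every called gene and the gene of highest mean TPM per role of the pathway list, and every peak in a member or centered within 10 kb of its TSS, or else the nearest. No gene of the pathway list was called. Others of that list were named after their values were seen, for low unadjusted limma *P* values, groups without overlap, or a TPM of 0. Single marker genes were also named beyond the plan. The values of 1 gene of the pathway list are not reported here. The alternatives tried were a pseudocount of 1 or 0.01, no filter or one at 1 TPM, median ratio rescaling, quantile normalization, no trend, a replicate block, leaving out each aorta, narrower (1 kb), wider (5 kb), or one-sided promoters (1 kb before to 100 bp past the TSS), summits in place of centers, and q limits of 0.001 and 1e-05. Same-numbered aortas were not treated as pairs, since their deviations did not go together.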

Additional observations from a re-analysis of the deposited data

How the results depend on the processing

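Called members numbered 0, and 1 under some alternatives, *Hes1* each time, with a mean TPM of at least 1, median ratio rescaling, quantile normalization, or both aortas highest in brown adipocyte markers left out, the last chosen after the data were seen. Leaving out single aortas gave 0 to 1. With the replicate number as a block the count was also 1 (limma, adjusted *P* = 0.0261 for *Hes1*). The sources used here do not say whether same-numbered aortas share a batch. The correlations of same-numbered aortas were −0.0246, −0.07, and −0.00896, which with 3 aortas per group cannot exclude one. The block moved the calls over all genes from 168 to 184. No gene of the pathway list was called under any of the 15 alternatives run. Without the aortas highest in brown adipocyte markers, *Notch4* had a log2 fold change of −0.025 and *Hey1* of 0.12. Without single aortas *Notch4* ran from −0.023 (without Prdm16SMKO aorta 3) to 0.39 (without Prdm16SMKO aorta 2), with −0.0021 without control aorta 1. The other 8 members kept their direction under all 15. *Prdm16* was called under 3 of them, with a log2 fold change from −1.02 to −0.72. Members with a promoter peak fell from 7 to 4 at a q of at most 1e-05. They fell to 0 with a window from 1 kb upstream to 100 bp downstream, where *Hes1* depends on the start site used. That window took the pathway list from 26 of 45 to 9 and counts fewer positions by its construction. The other causes were not tested. Calls over all genes numbered 411 with median ratio rescaling, 392 with quantile normalization, 48 without a trend, and 110 without a filter, and single aortas left out gave 91 to 141. The split of 61 higher and 107 lower became 196 and 215 with median ratio rescaling. The depth behind the TPM is unknown, and peaks rest on 1 library.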
